A study of Mus musculus with 24 samples.

Results

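The GADD45 family was followed in Ku70-/- mouse embryonic fibroblasts exposed to the oxidizing agent potassium bromate (KBrO3), to bisphenol A (BPA), or to both. Members were taken by gene name or older synonym from the annotation of the first of 2 array sets, and the same probe names were read in the second set. The family held 4 genes, Gadd45a, Gadd45b, Gadd45g and Gadd45gip1, with 6 of the 41174 probes on the array. All 6 were well above background on all 24 arrays, none was saturated, and all were among the probes tested, which numbered 27310 for the first set and 31810 for the second.

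All cells came from a single fibroblast line that lacks Ku70 (Xrcc6), the untreated cells included, so no wild-type cells enter any comparison. The first set held 15 arrays, 3 for each of 5 groups. These were untreated cells, labelled with a 4 that is read here as 4 hr, KBrO3 alone harvested at 4 or 24 hr, and joint exposure to KBrO3 and BPA (co-exposure) harvested at the same times. KBrO3 was given at 20 mM for 1 hr, followed by 3 or 23 hr in fresh medium, and co-exposed cells had 150 μM BPA from 1 hr before KBrO3 until harvest. The second set held 9 arrays, 3 each for untreated cells with no time in the labels and for cells kept in 150 μM BPA for 4 or 24 hr. The study's methods count the hours of BPA alone as 1 hr more at each time point than the labels do, and call the replicates biological. The first set has no untreated cells of 24 hr, so at that time the treatment and the hours in culture cannot be told apart. The second set has 1 untreated group, without a time, for both times of BPA, so the same limit applies there.

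Signal is given on the log2 scale, relative to the 75th percentile of the same array, so a difference of 1 is a doubling. Where a gene had more than 1 probe, the brightest probe stands for it. Groups were compared with limma, with p adjusted over all probes tested in that comparison, and a gene was called where the adjusted p was below 0.05. The share of probes well above background was 57.7 to 68.1% on arrays of the first set and 76.4 to 79.4% in the second. The median residual SD of a probe was 0.11 for the first set against 0.32 for the second, so that a change of a given size was called more readily in the first. All 12 fibroblast markers were above background on every array of 6 groups. In KBrO3 alone and co-exposure at 24 hr this held for 11 of the 12, and the summed marker signal was 9.52 to 9.69 and 9.02 to 9.23, against 10.88 to 10.97 in the untreated cells. The summed signal of 9 macrophage and leukocyte markers lay between 0.33 and 1.72 over all groups, and the leukocyte gene Ptprc and the endothelial gene Pecam1 were not well above background on any array. The part of these markers in any result was not tested. The Xrcc6 probe was well above background on all 24 arrays, with group means from −0.58 to 0.51; its place relative to the deletion is not given in the sources used here, so it does not check the genotype.

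GADD45 proteins are small acidic proteins without an enzyme activity of their own that act by binding others. They bind PCNA and the CDK inhibitor p21, they hold back the cyclin B1 and CDK1 complex at the G2/M boundary, and they switch on the kinase MEKK4 (Map3k4) upstream of p38 and JNK. They have also been linked to DNA demethylation through excision repair. Gadd45a is a classical p53 target that is also raised without p53 by ATF4 and by Oct-1 and NF-Y at its promoter. Gadd45b was found as a myeloid differentiation gene and answers to TGF-beta and NF-kB, and Gadd45g answers to cytokines. Gadd45gip1, also called CRIF1, was named for binding the 3 proteins but is not of their sequence family, and it is a protein of the large subunit of the mitochondrial ribosome.

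The 250 bases before the start of the 3 inducible genes are shown, since Gadd45b and Gadd45g moved together in these data and Gadd45a moved apart from them. The sequences are those of RefSeq on GRCm38.p6, 5′ to 3′ on the strand of the gene. Capitals mark matches, on either strand, to the octamer bound by Oct-1 (ATTTGCAT), the NF-Y box CCAAT, the E-box CACGTG and the TATA letters TATAA.
Gadd45a, chr6:67037408-67037657, minus strand: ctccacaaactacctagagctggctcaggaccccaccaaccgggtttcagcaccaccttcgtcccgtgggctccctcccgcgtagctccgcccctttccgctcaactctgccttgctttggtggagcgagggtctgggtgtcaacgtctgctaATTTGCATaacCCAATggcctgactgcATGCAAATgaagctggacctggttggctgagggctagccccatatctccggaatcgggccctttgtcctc
Gadd45b, chr10:80929841-80930090, plus strand: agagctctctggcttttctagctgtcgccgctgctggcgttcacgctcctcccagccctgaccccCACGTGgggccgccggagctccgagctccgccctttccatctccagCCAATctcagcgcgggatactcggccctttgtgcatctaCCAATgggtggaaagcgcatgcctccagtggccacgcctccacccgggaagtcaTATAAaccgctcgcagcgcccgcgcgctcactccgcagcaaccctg
Gadd45g, chr13:51846425-51846674, plus strand: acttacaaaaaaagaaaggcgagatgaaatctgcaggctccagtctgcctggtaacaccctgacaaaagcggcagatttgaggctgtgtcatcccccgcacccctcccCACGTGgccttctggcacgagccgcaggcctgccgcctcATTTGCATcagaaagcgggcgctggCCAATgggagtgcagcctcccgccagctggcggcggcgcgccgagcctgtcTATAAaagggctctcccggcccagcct
Promoter entries matched 3 of the 4 members; Gadd45gip1 is named only. The octamer was read 2 times before Gadd45a, once on each strand, and 1 time before Gadd45g, and was not found before Gadd45b. Of the 32851 promoter windows of this length, 1.6% hold it. CCAAT was read before all 3 genes, 2 times before Gadd45b, and 33.8% of windows hold it. Gadd45b and Gadd45g shared a CACGTG and a TATAA that the Gadd45a window lacks, and 6.02% and 22.8% of windows hold these letters. Of 4 more motifs searched on both strands, the AP-1 site TGACTCA (4.46% of windows) and the short CRE letters TGACG (17.8%) were found before none of the 3 genes. GGGCGG (32.7%) was read 1 time each before Gadd45a and Gadd45b, and TGATGCAA (0.791%), which overlaps the octamer, 1 time before Gadd45g. The motifs were chosen after the sequences were seen, and a match is a description and no evidence of binding.

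Gadd45a, the p53 and ATF4 target of the family, was raised 4 hr post-damage induction by every treatment, most in the presence of BPA, and at 24 hr it was above untreated cells with BPA and below them with KBrO3 alone. Its probe lies on chromosome 6 at 67017167 to 67017226 of mm7, the build that the first set's array headers name; no gene model of that build was used here, so exons and UTRs are not assigned to any probe. Signal in the 3 untreated arrays of the first set was 1.69, 1.58 and 1.43. At 4 hr it was 2.33, 2.29 and 2.32 after KBrO3 alone but 3.93, 3.78 and 3.90 after co-exposure. At 24 hr it was 0.92, 0.94 and 0.83 with KBrO3 alone and 2.49, 2.55 and 2.74 with co-exposure. No 2 of these 5 groups overlapped, and their order from the top was co-exposure at 4 hr, co-exposure at 24 hr, KBrO3 alone at 4 hr, untreated cells and KBrO3 alone at 24 hr.

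KBrO3 alone raised Gadd45a 1.68-fold at 4 hr (log2 fold change 0.74, SE 0.08, adjusted p = 1.86e-06) and left it 1.59-fold below untreated cells at 24 hr (log2 fold change −0.67, SE 0.08, adjusted p = 7.64e-06). All 12 fibroblast markers were also lower than in untreated cells with KBrO3 alone at 24 hr, with a median of −1.38, and with co-exposure at 24 hr, with a median of −1.77, and their part in the 24 hr results was not tested. In these bulk samples fewer cells of a type and less RNA per cell cannot be told apart. Co-exposure raised it 4.94-fold at 4 hr (log2 fold change 2.30, adjusted p = 4.07e-11) and 2.04-fold at 24 hr (1.03, adjusted p = 1.24e-07). Against KBrO3 alone, the cells that also had BPA held 2.95-fold more signal at 4 hr (log2 fold change 1.56, SE 0.08, adjusted p = 3.6e-08) and 3.24-fold more at 24 hr (1.70, SE 0.08, adjusted p = 8.37e-09). At 24 hr this difference was exceeded by 49 of the 27310 probes tested, and at 4 hr by 592. The 2 groups of 4 hr shared no slide, so the difference at 4 hr cannot be told apart from the slide. The 2 differences were 0.14 apart (95% confidence interval −0.10 to 0.37, adjusted p = 0.294), and with the arrays scaled to their medians 0.45 apart (adjusted p = 0.0186). From 4 to 24 hr the signal fell by 1.41 with KBrO3 alone and by 1.27 with co-exposure, on the log2 scale (adjusted p = 5e-09 and 1.11e-08). Median scaling brought the last of these to −0.81, and normexp background correction brought the change with KBrO3 alone at 24 hr from −0.67 to −0.44, with both still called.

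**Figure D1:**
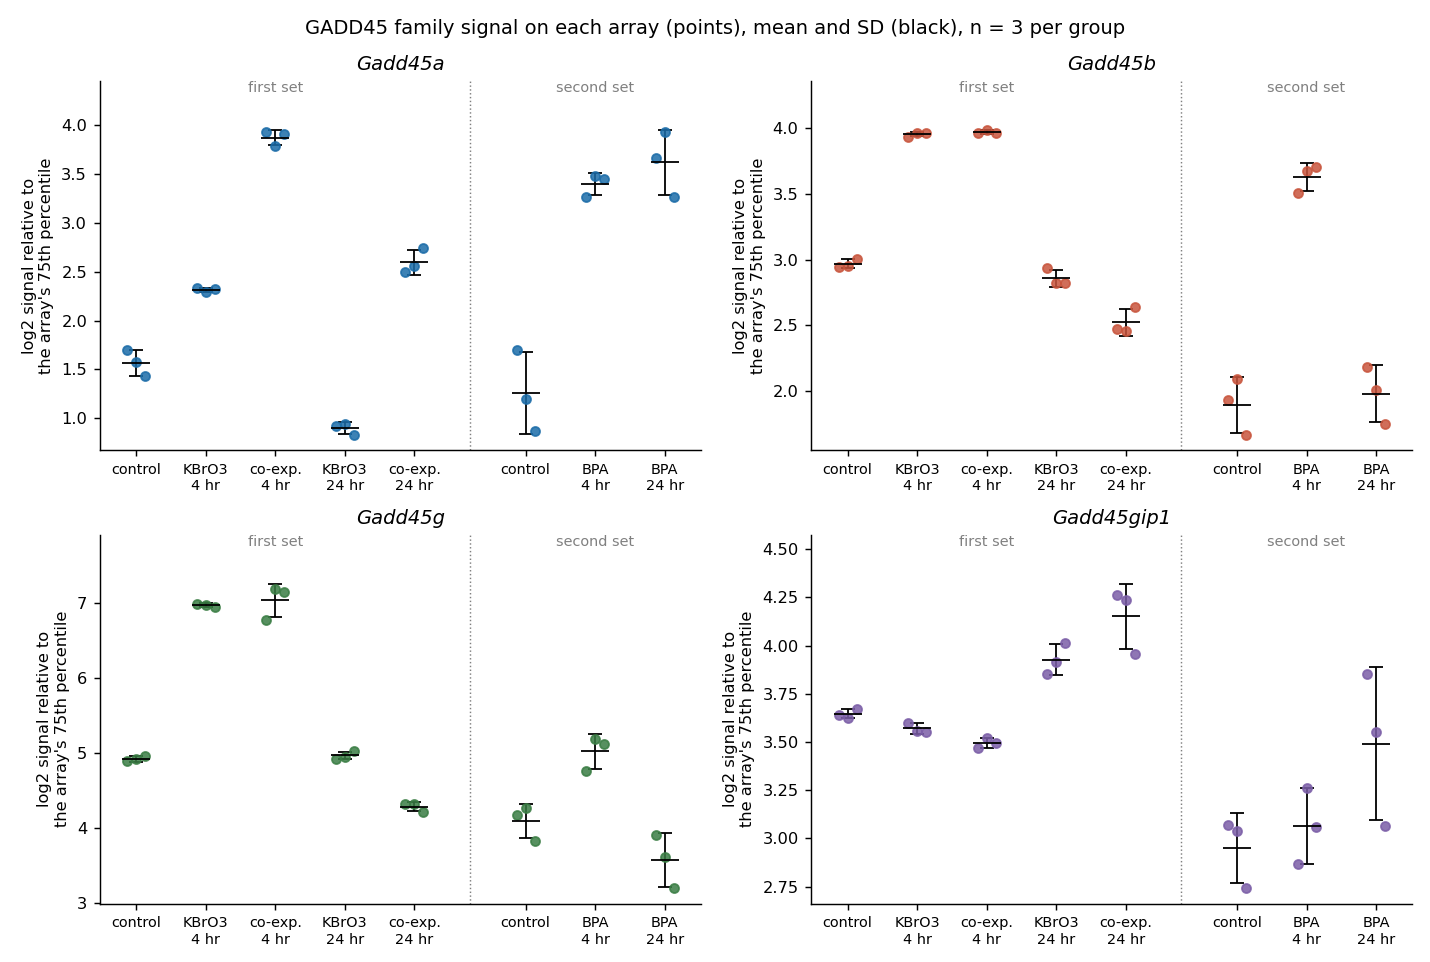
Signal of the representative probe of each member on every array, as log2 relative to the array's 75th percentile (vertical axis; the range differs between panels), for the 5 groups of the first set and the 3 of the second. Points are arrays and black marks the mean and SD of 3; Gadd45a stays high with co-exposure and BPA at 24 hr, where Gadd45b and Gadd45g are back at or below untreated cells.

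Gadd45g, the cytokine-responsive member, rose to the same level at 4 hr with KBrO3 and with co-exposure, and at 24 hr it was close to the untreated level with KBrO3 alone and below it with co-exposure. Its probe lies on chromosome 13 at 50882456 to 50882515 of mm7. Untreated cells read 4.89, 4.91 and 4.96 in the first set. KBrO3 alone read 6.99, 6.98 and 6.95 at 4 hr and 4.92, 4.95 and 5.03 at 24 hr. Co-exposure read 6.78, 7.19 and 7.15 at 4 hr and 4.31, 4.32 and 4.21 at 24 hr. The 2 groups of 4 hr overlapped each other, KBrO3 alone at 24 hr overlapped the untreated cells, and co-exposure at 24 hr lay below all others.

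The rise of Gadd45g at 4 hr was 4.15-fold with KBrO3 alone (log2 fold change 2.05, SE 0.09, adjusted p = 4.39e-10) and 4.33-fold with co-exposure (2.12, SE 0.09, adjusted p = 2.76e-10). With KBrO3 alone, 806 of 27310 probes rose more. BPA added to KBrO3 made a difference of 0.06 at 4 hr (95% confidence interval −0.13 to 0.25, adjusted p = 0.556), which became 0.19 (adjusted p = 0.00794) without replicate 1 of co-exposure at 4 hr. At 24 hr Gadd45g was 0.04 from untreated cells with KBrO3 alone (−0.14 to 0.23, adjusted p = 0.677), but with quantile normalization it was called higher there (0.21, adjusted p = 0.0373). With co-exposure it was 1.56-fold below untreated cells (log2 fold change −0.64, adjusted p = 2.91e-05) and 1.61-fold below KBrO3 alone (−0.68, adjusted p = 4.43e-05). The BPA-added difference therefore fell by 0.75 from 4 to 24 hr (SE 0.12, adjusted p = 3.69e-04). Gadd45g itself fell 4.03-fold between the times with KBrO3 alone (log2 fold change −2.01, adjusted p = 6.65e-10) and 6.75-fold with co-exposure (−2.76, adjusted p = 3.63e-11). With normexp background correction, the change of the difference (−0.79, adjusted p = 0.0728) and the co-exposure change at 24 hr (−0.34, adjusted p = 0.103) were not called. With the arrays scaled to their medians both were called and smaller, at −0.44 (adjusted p = 0.0427) and −0.32 (adjusted p = 0.0263).

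Gadd45b, the TGF-beta and NF-kB responsive member, followed the course of Gadd45g, with smaller changes at 4 hr than Gadd45g in the first set and a larger one with BPA alone. Over the first set the 2 genes had a Pearson r of 0.99 across 15 arrays, and 0.91 across the 9 arrays of the second set, where the arrays of a set share their groups and scaling. Gadd45a had an r of 0.56 with each of them in the first set. The representative Gadd45b probe read 2.94, 2.95 and 3.01 in untreated cells. It read 3.93, 3.96 and 3.96 with KBrO3 alone and 3.96, 3.98 and 3.96 with co-exposure at 4 hr, and these 2 groups overlapped. At 24 hr it read 2.93, 2.82 and 2.82 with KBrO3 alone and 2.47, 2.46 and 2.64 with co-exposure, both below every untreated array, the first by 0.007 only.

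The rise of Gadd45b at 4 hr was 1.98-fold with KBrO3 alone (log2 fold change 0.99, SE 0.05, adjusted p = 2.94e-09) and 2.00-fold with co-exposure (1.00, SE 0.05, adjusted p = 2.12e-09). BPA added to KBrO3 made a difference of 0.02 at 4 hr (95% confidence interval −0.10 to 0.13, adjusted p = 0.806). At 24 hr KBrO3 alone was −0.11 from untreated cells (adjusted p = 0.0745) and co-exposure was 1.36-fold below them (log2 fold change −0.44, adjusted p = 7.11e-06). The difference of co-exposure from KBrO3 alone at 24 hr was −0.33 (adjusted p = 2.03e-04). From 4 to 24 hr the gene fell 2.14-fold with KBrO3 alone (log2 fold change −1.10, adjusted p = 1.34e-09) and 2.72-fold with co-exposure (−1.45, adjusted p = 9.88e-11). The 24 hr values of Gadd45b depended on the probe and on the scaling of the arrays, as given with the probes. With normexp background correction the values of co-exposure at 24 hr (−0.11, adjusted p = 0.533), of its difference from KBrO3 alone (−0.29, adjusted p = 0.33) and of the change in that difference over time (−0.29, adjusted p = 0.561) were not called, and the last was not called with all 24 arrays in 1 fit either (adjusted p = 0.127).

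Gadd45gip1, the mitoribosomal protein, did not share the early rise and was higher at 24 hr. It read 3.64, 3.63 and 3.67 in untreated cells, and at 4 hr 3.60, 3.56 and 3.55 after KBrO3 alone against 3.47, 3.52 and 3.50 after co-exposure. At 24 hr it read 3.85, 3.92 and 4.01 with KBrO3 alone and 4.26, 4.24 and 3.96 with co-exposure. The 2 groups of 24 hr overlapped each other and lay above all untreated arrays. The change at 4 hr was −0.08 with KBrO3 alone (95% confidence interval −0.23 to 0.08, adjusted p = 0.343) and −0.15 with co-exposure (−0.31 to 0.00156, adjusted p = 0.0649). With quantile normalization both were called lower (−0.29 and −0.30, adjusted p = 2.53e-04 and 1.75e-04), and with median scaling that of co-exposure was (−0.29, adjusted p = 0.0263). At 24 hr the gene was 1.22-fold higher with KBrO3 alone (log2 fold change 0.28, SE 0.07, adjusted p = 0.00375, but 0.148 with all 24 arrays in 1 fit) and 1.42-fold higher with co-exposure (0.51, SE 0.07, adjusted p = 3.85e-05). Co-exposure at 24 hr stood 0.23 above KBrO3 alone (adjusted p = 0.0201), a call that was lost without replicate 1 or 2 of either group (adjusted p = 0.0537 to 0.0869), with quantile normalization (0.12, adjusted p = 0.079) and with the mean of both probes (0.01, adjusted p = 0.874). It was lost too with normexp (adjusted p = 0.754), with only the arrays compared (adjusted p = 0.15) and with all 24 arrays in 1 fit (adjusted p = 0.354). From 4 to 24 hr the gene rose by 0.36 with KBrO3 alone (adjusted p = 5.65e-04, but 0.0654 with normexp and 0.0519 with all 24 arrays in 1 fit) and by 0.66 with co-exposure (adjusted p = 2.75e-06). The BPA-added difference rose by 0.30 between the times (adjusted p = 0.0234). That call was lost with normexp (0.25, adjusted p = 0.72), with all 24 arrays in 1 fit (adjusted p = 0.35), with quantile normalization (0.13, adjusted p = 0.155), with the mean of both probes (0.10, adjusted p = 0.402), and without replicate 1 of KBrO3 alone at either time or replicate 1 or 2 of co-exposure at 24 hr (adjusted p = 0.0514 to 0.0581). Median scaling gave larger and called values at 24 hr, at 0.43 with KBrO3 alone, 0.82 with co-exposure and 0.39 between them, and 1.12 for co-exposure from 4 to 24 hr and 0.61 for the change of the difference. Normexp gave 0.62 and 0.80 for the first 2 of these, and quantile normalization 0.44 for the first and 0.73 for the rise with KBrO3 alone from 4 to 24 hr.

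**Figure D2:**
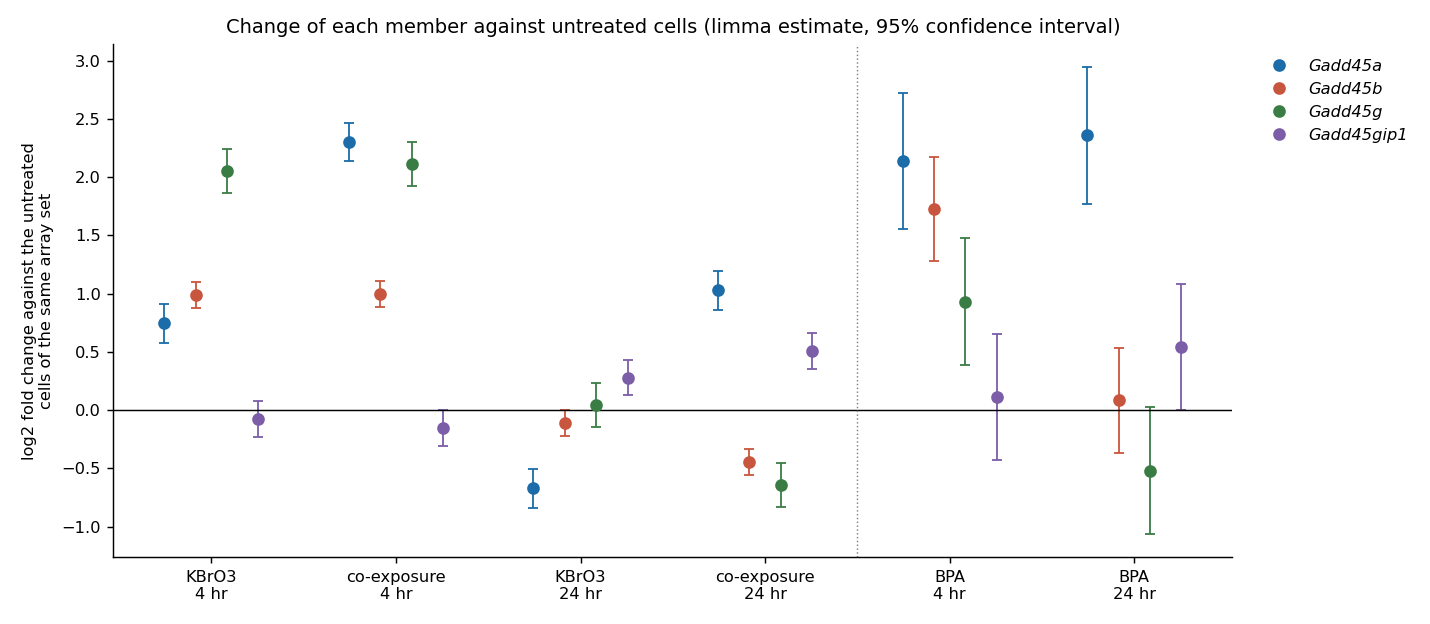
Log2 fold change of each member against the untreated cells of its own array set (vertical axis), with the 95% confidence interval of limma, for the 6 treatments. At 4 hr Gadd45a, Gadd45b and Gadd45g lie above 0 in every treatment; at 24 hr Gadd45a lies at −0.67 with KBrO3 alone, 1.03 with co-exposure and 2.36 with BPA alone.

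BPA alone raised Gadd45a and Gadd45b at 4 hr, and at 24 hr Gadd45a was still high while Gadd45b was close to the untreated level. Gadd45a read 1.70, 1.20 and 0.88 in the untreated cells of the second set, 3.26, 3.48 and 3.45 with BPA at 4 hr, and 3.67, 3.92 and 3.26 with BPA at 24 hr. Both BPA groups lay above all untreated arrays and overlapped each other. The rise was 4.40-fold at 4 hr (log2 fold change 2.14, SE 0.26, adjusted p = 0.00323) and 5.13-fold at 24 hr (2.36, SE 0.26, adjusted p = 0.0041). In the second case 45 of 31810 probes rose more. From 4 to 24 hr Gadd45a differed by 0.22 (95% confidence interval −0.36 to 0.80, adjusted p = 0.658). Over the other settings run, leaving out arrays apart, this difference ranged from 0.20 to 1.10 and was never called.

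Gadd45b read 1.93, 2.09 and 1.67 in the untreated cells of the second set, 3.50, 3.67 and 3.70 with BPA at 4 hr, and 2.18, 2.01 and 1.75 with BPA at 24 hr. The 4 hr group lay above all others and the 24 hr group overlapped the untreated cells. The rise at 4 hr was 3.31-fold (log2 fold change 1.73, SE 0.20, adjusted p = 0.00258), the change at 24 hr was 0.08 (95% confidence interval −0.36 to 0.53, adjusted p = 0.87), and the fall from 4 to 24 hr was called (log2 fold change −1.64, adjusted p = 0.00375). Gadd45g read 4.17, 4.27 and 3.83 in untreated cells, 4.75, 5.18 and 5.13 at 4 hr and 3.91, 3.61 and 3.19 at 24 hr. Its 4 hr group did not overlap the untreated cells, yet the difference of 0.93 was not called (SE 0.24, adjusted p = 0.0679), and neither was that of −0.52 at 24 hr (adjusted p = 0.298). With all 24 arrays in 1 fit both were called (adjusted p = 3.1e-04 and 0.0275), in a fit that also called more of all probes at 24 hr. The fall of Gadd45g from 4 to 24 hr was called (log2 fold change −1.45, SE 0.24, adjusted p = 0.0137), but not without replicate 2 or 3 of BPA at 4 hr (adjusted p = 0.0672 and 0.0724). That call was also lost with the slide as a fixed block (−1.06, adjusted p = 0.427) and with normexp (−1.385, adjusted p = 0.397). The fall of Gadd45b was lost in the same 2 settings (adjusted p = 0.383 and 0.419).

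Gadd45gip1 read 3.07, 3.04 and 2.74 in the untreated cells of the second set, 2.87, 3.26 and 3.06 with BPA at 4 hr and 3.85, 3.55 and 3.07 at 24 hr. Neighbouring groups overlapped. The changes from untreated cells were 0.11 at 4 hr (95% confidence interval −0.43 to 0.65, adjusted p = 0.83) and 0.54 at 24 hr (0.00103 to 1.08, adjusted p = 0.273). Neither was called, but with all 24 arrays in 1 fit the one at 24 hr was (adjusted p = 0.0169).

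The effect of BPA given alone was set against that of BPA added to KBrO3, which crosses the 2 array sets and was tested with array weights. The sets have separate untreated cells, so the comparison is of 2 differences and not of levels. At 4 hr the representative Gadd45b probe lay at 1.73 with BPA alone and at 0.02 with BPA added to KBrO3, where the gene's dimmer probe lay at −0.18. The difference between these was 1.71 (SE 0.17, adjusted p = 3.25e-06), and 365 of 27180 probes had a larger one. For Gadd45g the effects were 0.93 and 0.06, a difference of 0.87 at the threshold (adjusted p = 0.0496). It was called in only 5 of 14 alternative settings, with adjusted p from 0.0116 to 0.468, and in 5 of the 24 fits that left out 1 array. For Gadd45a the effects were 2.14 and 1.56 at 4 hr and 2.36 and 1.70 at 24 hr. The differences of 0.58 (95% confidence interval 0.04 to 1.12, adjusted p = 0.17) and 0.66 (0.13 to 1.20, adjusted p = 0.242) were not called. At 24 hr 0 of the 4 members were called in limma, where 2.47% of all probes were called, and 2 had an unadjusted p below 0.05, as 12.4% of all probes did. With the slide as a fixed block 3 were called there, Gadd45a at 1.12 (adjusted p = 0.00112), Gadd45b at 0.57 (adjusted p = 0.00375) and Gadd45gip1 at 0.53 (adjusted p = 0.0033), in a fit that called 6604 of all 27180 probes against 671 without the block. As a random block it gave calls for Gadd45a at 0.86 (adjusted p = 0.0101) and Gadd45b at 0.49 (adjusted p = 0.0109), with 3620 of all probes called.

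**Figure D3:**
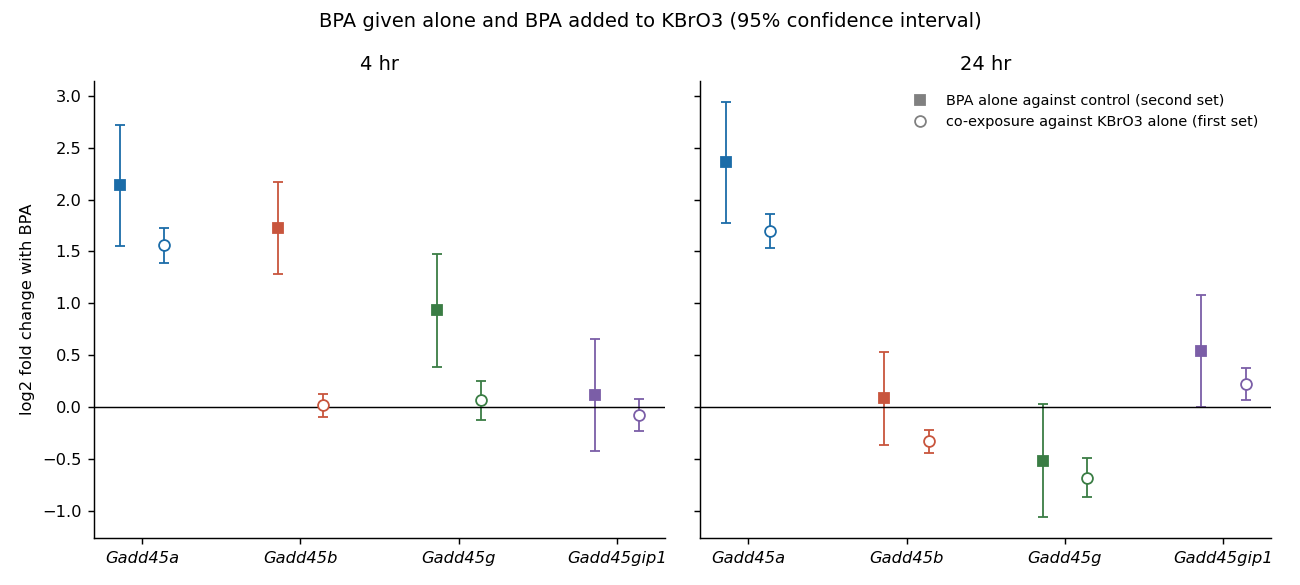
Log2 fold change with BPA (vertical axis) for each member, with BPA alone against untreated cells as squares and co-exposure against KBrO3 alone as open circles, at 4 hr (left) and 24 hr (right); bars are 95% confidence intervals. The pair that stands furthest apart is Gadd45b at 4 hr, at 1.73 and 0.02.

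Counted over the members, KBrO3 alone at 4 hr called 3 of 4 higher, where 36.3% of all probes were called higher, and the median change of the 4 was 0.86 against 0.06 over all probes. Co-exposure at 4 hr called 3 of 4 higher against 41.6% of all probes, with a median of 1.56 against 0.08. At 24 hr KBrO3 alone called 1 higher and 1 lower against 66.2% of probes in either direction, and co-exposure called 2 higher and 2 lower against 69.9%. BPA added to KBrO3 called 1 of 4 higher at 4 hr, against 29.2% of probes, and 4 of 4 at 24 hr, 2 in each direction, against 46.7%. All 4 members changed from 4 to 24 hr with KBrO3 alone (75.3% of probes) and with co-exposure (81.2%), in both cases 3 lower and 1, Gadd45gip1, higher. The change of the BPA-added difference over time was called for 3 of 4 against 54.3% of probes. In the second set BPA alone called 2 of 4 higher at 4 hr, where 2.83% of probes were, 1 of 4 higher at 24 hr (1.39%), and 2 of 4 lower between the times (2.79%). BPA alone against BPA added at 4 hr called 2 of 4 higher (5.19%). The treatments of a set share their untreated arrays, so these counts are not independent of each other. With so many probes called in the first set, the study's stricter criterion of a Bonferroni p below 0.01 with a 1.5-fold change is also given. It was met by Gadd45b and Gadd45g with KBrO3 at 4 hr (14.7% of probes higher), by all but Gadd45gip1 with co-exposure at 4 hr (16.4%), and by Gadd45a alone with co-exposure at 24 hr (9.77%). Gadd45a alone met it for co-exposure against KBrO3 at 4 hr (2.5%) and at 24 hr (2.75%).

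The arrays lay on 5 slides in each set, and in the first set a slide held mostly 1 or 2 groups. KBrO3 alone at 4 hr shared a slide with 1 untreated array, and within it the differences were 0.88 for Gadd45a, 0.95 for Gadd45b and 2.01 for Gadd45g. Co-exposure and KBrO3 alone at 24 hr shared a slide with 2 arrays each, and within it the differences were 1.64 for Gadd45a, −0.35 for Gadd45b and −0.67 for Gadd45g. All other differences from untreated cells in the first set cannot be told apart from the slide. The same holds for co-exposure against KBrO3 alone at 4 hr and for KBrO3 alone at 24 hr against 4 hr. It holds too for the change of the BPA-added difference over time and for BPA alone against BPA added at 4 hr. In the second set the differences of Gadd45a within slides were 1.65 for BPA at 4 hr and 2.47 and 3.05 at 24 hr, and that of Gadd45b at 4 hr was 1.67. With the slide as a block in the second set, which leaves few residual degrees of freedom, the members' calls for BPA alone were lost (adjusted p = 0.237 and 0.0676 for Gadd45a at 4 and 24 hr, and 0.214 for Gadd45b at 4 hr). That fit called 0 of all 31810 probes for BPA at either time. The same calls were lost with normexp background correction, which used the median spot signal in the second set and the mean spot signal in the first, and where the changes were 2.10 and 2.40 for Gadd45a (adjusted p = 0.105 and 0.154) and 1.43 for Gadd45b at 4 hr (adjusted p = 0.288), under which 16 of all probes were called at 4 hr and 0 at 24 hr.

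Gadd45b and Gadd45gip1 had a second probe, and its start is shown to tell it from the first. The first 30 bases of each are printed in lower case, as the array annotation gives them, with mm7 positions.
Gadd45b, brighter probe, chr10:80721751-80721810, plus strand: cgcttgcatatttttaaaaatttctactac
Gadd45b, dimmer probe, chr10:80721228-80721287, plus strand: ctatatctctctagaggaacgctgagaccc
Gadd45gip1, brighter probe, chr8:83420518-83420577, plus strand: tggtgaacccagctcctgaaagctcccttc
Gadd45gip1, dimmer probe, chr8:83420989-83421048, plus strand: tcagactcacaaacagctgtgagaagctcc
The Gadd45b probes start 523 bases apart and rose alike at 4 hr, by 0.99 and 1.16 with KBrO3 alone, 1.00 and 0.98 with co-exposure and 1.73 and 1.62 with BPA alone. They disagreed at 24 hr. With co-exposure the brighter probe lay at −0.44 and the dimmer one at −0.03 (adjusted p = 0.71). With KBrO3 alone the dimmer probe was called higher (log2 fold change 0.15, adjusted p = 0.0455) where the brighter one lay at −0.11. The change of the BPA-added difference over time was −0.35 by the brighter probe (adjusted p = 0.0017) and 0.01 by the dimmer one (adjusted p = 0.95), which was called lower with BPA added at both times (−0.18, adjusted p = 0.0213 at 4 hr and 0.0311 at 24 hr). Scaling the arrays to their medians also ended the call of the brighter probe for co-exposure at 24 hr (log2 fold change −0.13, adjusted p = 0.0914) and for its difference from KBrO3 alone (−0.16, adjusted p = 0.0505), and brought its change over time to −0.04 (adjusted p = 0.743). Quantile normalization gave −0.52 for that change, and the mean of both probes −0.17, with −0.24 for co-exposure at 24 hr, all called.

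The Gadd45gip1 probes start 471 bases apart. Their mean signal over all 24 arrays was 3.54 and −2.81, so the second was far dimmer, though well above background on every array. The mean of both probes weighs them alike. Both were higher at 24 hr than in untreated cells, by 0.28 and 0.53 with KBrO3 alone and by 0.51 and 0.34 with co-exposure, and all 4 of these changes were called. They disagreed on BPA added to KBrO3 at 24 hr, where the brighter probe lay at 0.23 (adjusted p = 0.0201) and the dimmer one at −0.20 (adjusted p = 0.0725), and on the change of that difference over time, at 0.30 and −0.11 (adjusted p = 0.0234 and 0.457).

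**Figure D4:**
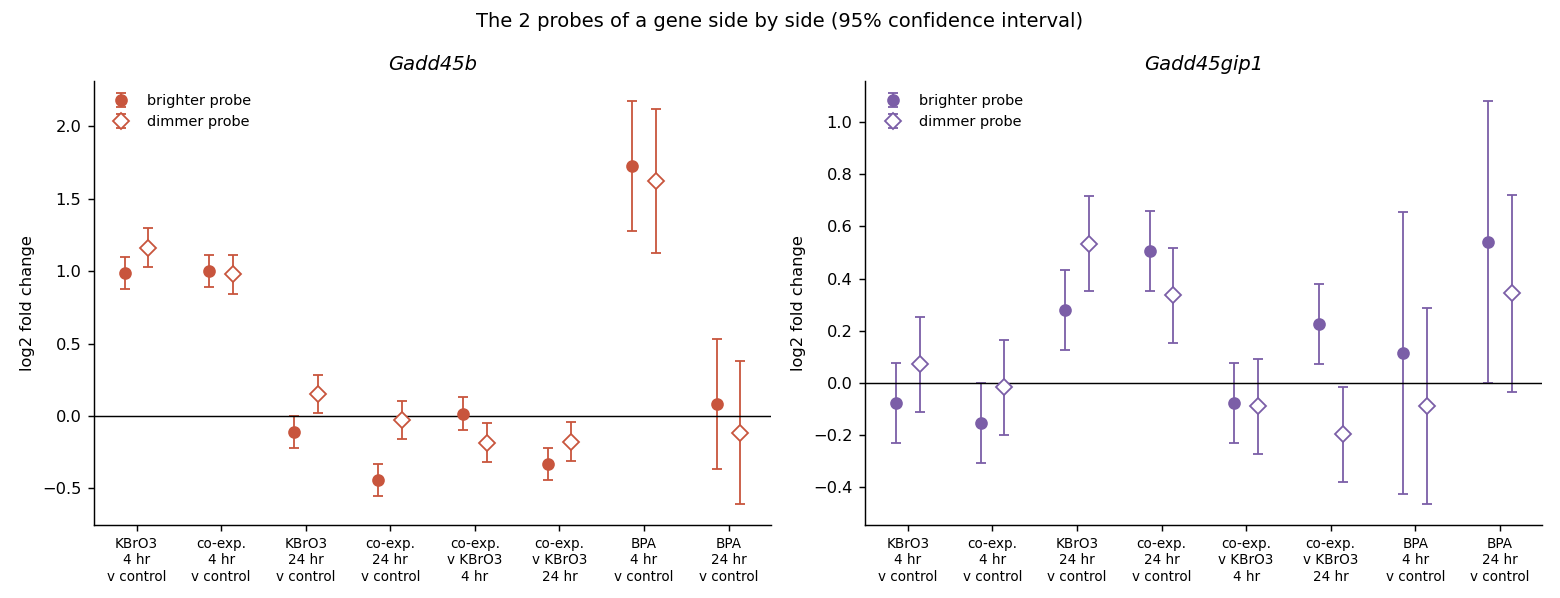
Log2 fold change (vertical axis) by the brighter probe (filled circles) and the dimmer probe (open diamonds) of Gadd45b (left) and Gadd45gip1 (right) in several comparisons, with 95% confidence intervals. The Gadd45b probes lie at −0.44 and −0.03 for co-exposure at 24 hr, and the Gadd45gip1 probes on opposite sides of 0 for co-exposure against KBrO3 at 24 hr.

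The 2 other genes named for growth arrest and DNA damage were higher than in untreated cells with KBrO3 and with co-exposure at both times. Ddit3 (GADD153, CHOP), a transcription factor of the integrated stress response, was higher by 2.01 with KBrO3 and 3.26 with co-exposure at 4 hr, and by 0.54 and 2.06 at 24 hr, all called on the log2 scale. Like Gadd45a it was higher with BPA added, by 1.25 at 4 hr and 1.52 at 24 hr (adjusted p = 1.11e-07 and 1.28e-08). It was also higher with BPA alone, by 1.56 and 1.52 (adjusted p = 0.0113 and 0.0145). Ppp1r15a (GADD34), which guides the phosphatase of the initiation factor eIF2, was higher by 2.15 and 2.79 at 4 hr and by 0.90 and 1.83 at 24 hr. With BPA alone its changes were 0.28 and 1.53 (adjusted p = 0.81 and 0.173).

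Of 23 genes listed as upstream factors, 21 were tested, and 16 were higher and 3 lower with KBrO3 at 4 hr, with a median log2 fold change of 0.59. Of all probes 72.1% were called in that comparison, and 36.3% were called higher. With co-exposure at 4 hr 17 were higher and 2 lower (median 0.34), against 78.6% of all probes called and 41.6% called higher. With BPA alone 6 were higher at 4 hr and 3 at 24 hr, where 2.83% and 1.39% of all probes were, with 0 lower at either time. Atf4, the factor that acts on Gadd45a under amino acid and endoplasmic reticulum stress, was higher by 1.36 with KBrO3 and 2.02 with co-exposure at 4 hr and by 0.55 and 1.61 at 24 hr. With KBrO3 alone at 24 hr Gadd45a was 0.67 below untreated cells, and a link between the course of Atf4 and that of Gadd45a was not tested. Atf4 was higher with BPA added by 0.66 at 4 hr and 1.06 at 24 hr. With BPA alone it was higher by 1.07 (adjusted p = 0.019) and 1.23 (adjusted p = 0.0132). Myc rose by 2.67 and 3.19 and the immediate early factor Egr1 by 1.97 and 1.67 at 4 hr with KBrO3 and co-exposure. At 24 hr Egr1 lay at 0.04 with KBrO3 alone (adjusted p = 0.587) and was higher by 0.26 with co-exposure (adjusted p = 9.41e-04). Pou2f1, which encodes Oct-1, was lower by 0.54 and 1.05 at 4 hr, and Stat3 by 0.83 and 0.88. Trp53, which encodes p53, was higher by 0.75 with KBrO3 (adjusted p = 2.86e-05) and 0.34 with co-exposure (adjusted p = 0.00981) at 4 hr, and by 0.85 (adjusted p = 1.39e-05) and 1.08 (adjusted p = 1.27e-06) at 24 hr.

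The 25 p53 targets on the list, with Gadd45a not counted among them, were mixed at 4 hr and mostly higher with co-exposure at 24 hr. With KBrO3 at 4 hr 11 were higher and 9 lower, with a median of 0.07, where 72.1% of all probes were called. With co-exposure at 24 hr 20 were higher and 4 lower (median 0.83), where 69.9% of all probes were called and 32.9% were higher. Against KBrO3 alone 22 were higher and 1 lower (median 0.67), where 46.7% of all probes were called and 23.1% were higher. BPA alone called 4 higher at each time and 0 lower, against 2.83% and 1.39% of all probes higher. Cdkn1a, which encodes the GADD45 partner p21, was higher by 3.08 with KBrO3 and 2.92 with co-exposure at 4 hr, and by 1.12 and 2.78 at 24 hr. Mdm2, the ubiquitin ligase of p53, was higher by 2.04 and 1.71 at 4 hr and by 0.97 and 2.34 at 24 hr. BPA added to KBrO3 made a difference of −0.17 for Cdkn1a (adjusted p = 0.0698) and −0.33 for Mdm2 at 4 hr, where that of Gadd45a was 1.56, and of 1.65 and 1.38 at 24 hr. Sesn2, a stress-induced regulator of mTORC1, was higher with BPA added at both times, by 0.80 and 1.44, and with BPA alone by 1.19 (adjusted p = 0.0313) and 1.37 (adjusted p = 0.0211). Plk2 rose by 3.86 with KBrO3 at 4 hr and was 0.34 above untreated cells at 24 hr. Fas (−1.86) and Ddb2 (−1.53) were the furthest below untreated cells of the list with KBrO3 at 4 hr, and Apaf1 fell by 2.05 with co-exposure.

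Of the stress MAP kinase arm 17 of 18 genes were tested in the first set, and 9 were higher and 8 lower with KBrO3 at 4 hr, against 72.1% of all probes called. Map3k4, the kinase that GADD45 proteins bind, was lower at 4 hr by 0.36 with KBrO3 (adjusted p = 4.8e-06) and by 0.72 with co-exposure (adjusted p = 6.62e-09), and at 24 hr read −0.07 (adjusted p = 0.139) and −0.13 (adjusted p = 0.0147). Jun rose by 2.55 and 2.43 at 4 hr, and Map2k3, a p38 kinase kinase, by 2.15 and 2.02. Mapk11 fell by 1.14 and Map2k6 by 1.12 with KBrO3 at 4 hr. Map2k6 was 1.30 higher in co-exposed cells than with KBrO3 alone, and with BPA alone lower by 1.13 at 4 hr (adjusted p = 0.0216). Mapk12 fell by 1.31 with co-exposure.

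Among 15 cell cycle partners, 4 were higher and 8 lower with KBrO3 at 4 hr (median −0.48), and 5 were higher and 8 lower with co-exposure (median −0.80), against 72.1% and 78.6% of all probes called. At 24 hr 12 were higher and 1 lower with KBrO3 alone, and 8 higher and 4 lower with co-exposure, against 66.2% and 69.9% of all probes called. Cdkn1b (−2.14), Plk1 (−1.47) and the phosphatase gene Cdc25b (−1.46) fell with KBrO3 at 4 hr, and the last 2 fell further with co-exposure, to −2.51 and −2.54. Cdc25a rose by 1.83 and 1.36. With BPA alone limma called 0 of the 15 at either time, and 7 had an unadjusted p below 0.05 at 4 hr and 6 at 24 hr, 1 of them higher each time, where 18.8% and 18.3% of all probes did. Of 17 demethylation and excision repair partners 16 were tested, and 7 were higher and 8 lower with KBrO3 at 4 hr, with a median of −0.0015, in the comparison that called 72.1% of all probes. The deaminase gene Apobec1 (1.24) was higher, and Apobec3 (−2.36) and the glycosylase gene Mbd4 (−2.14) were lower. Tet2 was higher by 0.98 with co-exposure at 4 hr.

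The mitochondrial large ribosomal subunit, to which the Gadd45gip1 protein belongs, gave 51 further genes. With KBrO3 at 4 hr 15 were higher and 22 lower, against 72.1% of all probes called, with a median of −0.05, and Gadd45gip1 lay at −0.08. With co-exposure at 4 hr 22 were higher and 24 lower (median −0.04, Gadd45gip1 −0.15), against 78.6% of all probes called. At 24 hr 34 were higher and 7 lower with KBrO3 alone (median 0.26, Gadd45gip1 0.28), where 66.2% of all probes were called and 32.1% were higher. With co-exposure at 24 hr 43 were higher and 4 lower (median 0.47, Gadd45gip1 0.51), where 69.9% of all probes were called, 32.9% were higher and the median of all probes was −0.07. BPA added to KBrO3 at 24 hr called 37 higher and 2 lower (median 0.21, Gadd45gip1 0.23), against 46.7% of all probes called and 23.1% higher. With BPA alone limma called 0 of the 51 at either time, with medians of 0.23 and 0.37 where Gadd45gip1 lay at 0.11 and 0.54. At an unadjusted p below 0.05, 4 were higher at 4 hr and 9 at 24 hr, where 18.8% and 18.3% of all probes passed in either direction. Single genes spread widely at 4 hr. Mrpl32 (1.47) and Mrpl19 (1.13) were the highest and Mrpl34 (−0.87) and Mrpl14 (−0.81) the lowest with KBrO3. Mrpl12 rose by 1.05 and Mrpl55 fell by 1.34 with co-exposure.

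**Figure D5:**
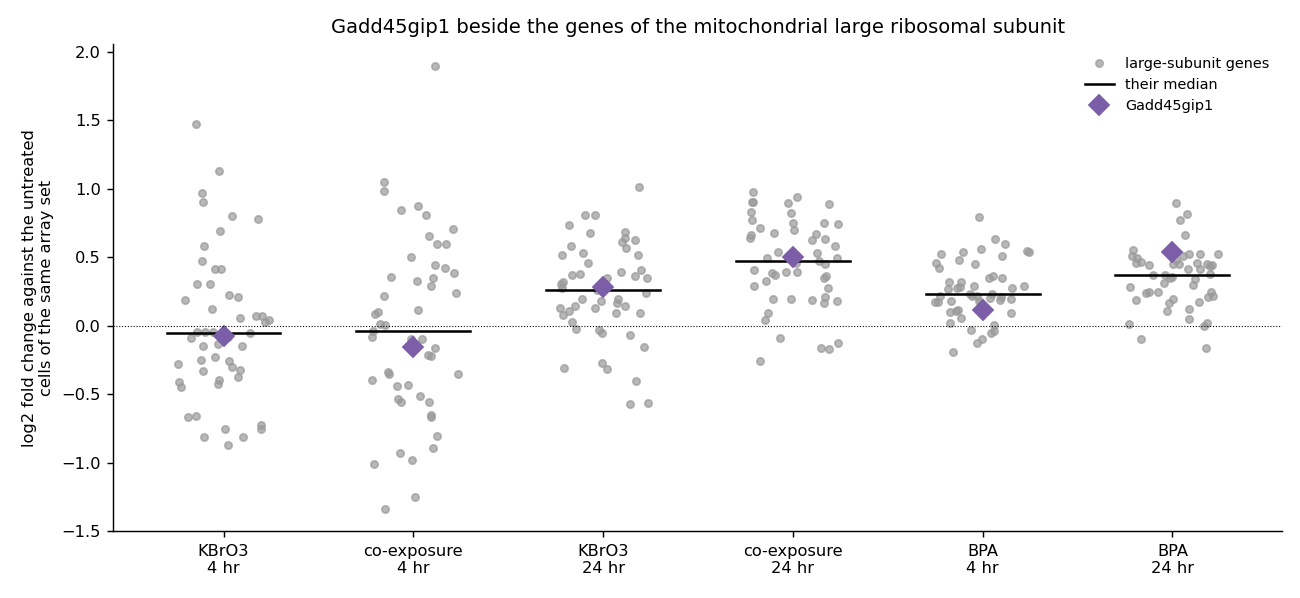
Log2 fold change against the untreated cells of the same set (vertical axis) of the 51 other genes of the mitochondrial large ribosomal subunit (grey points), their median (black line) and Gadd45gip1 (diamond) in 6 treatments. Gadd45gip1 lies near the median of the subunit, at 0.28 against 0.26 with KBrO3 and 0.51 against 0.47 with co-exposure at 24 hr.

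The genes with the pattern most like each member were ranked by Pearson r over the 15 arrays of the first set, among 18268 genes, and the r over the 9 arrays of the second set is set beside it. For Gadd45a they were Tnfaip2 (0.98, then 0.84), Tmem268 (0.98, then 0.96) and Zscan12 (0.97, then 0.71). For Gadd45b they were Trio (1.00, then 0.60), Syncrip (1.00, then 0.81) and Frmd6 (0.99, then 0.44). For Gadd45g they included Fasn (0.99, then −0.27) and an unnamed transcript, and the likeness of Fasn did not carry to the second set. For Gadd45gip1 they were Ccdc58 (0.99, then 0.79), Naa10 (0.98, then 0.65) and Clpb (0.98, then 0.76). The arrays of a set share groups of 3, so these values describe the course over 5 and 3 groups.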

How the data were processed

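The members, gene lists and tests were chosen with earlier results of these data known. RNA was hybridised to 1-colour Agilent whole mouse genome arrays, and the authors deposited the scanner output of 24 arrays, made with Feature Extraction 9.5.3.1 in the first set and 12.0.0.7 in the second. The deposited processed signal is an intensity on a linear scale that the software had already corrected for background. The deposited series table held the same linear values, equal to the scanner's to a relative difference of 1e-06 in 1080432 of 1080432 cases, and was used only for this check. Here log2 of the processed signal minus the 75th percentile of the array was computed in R 4.3.3, control spots and outlier spots were left out, and spots of 1 probe were averaged. A probe was tested where all arrays of 1 or more groups in its set read it well above background. Groups were compared within each set with limma 3.58.1 (lmFit and eBayes) and Benjamini-Hochberg adjustment. BPA alone against BPA added was fitted over all 24 arrays with array weights by set.

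All arrays of a group differed from each other in their values. Replicate numbers did not pair the arrays (mean correlation of deviations −0.03 over 30 pairs and 0.0020 over 9), so no block was used. The study's methods call the replicates biological, and the labels name no separate cultures, so p-values measure the spread between these samples. The 3 arrays a group limit the precision. RefSeq names were found for 32719 of 41174 probes. Besides the members, the text names Ddit3, Ppp1r15a, Trp53, Cdkn1a, Mdm2 and Map3k4, a selection of the called genes of each list with the largest rise or fall at 4 hr, and the 3 genes most like each member. The fits were tested on simulated data. Alternatives covered scaling, background correction (normexp, on the mean spot signal in the first set and the median spot signal in the second), probe filters, probe choice, blocks and leaving out each array. Among the genes most like Gadd45g in pattern, 1 is not reported here.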

Additional observations from a re-analysis of the deposited data

Results flagged for a closer look

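Each result here is a difference between effects, or between times under the same treatment, that passed the test of the difference itself. From 4 to 24 hr Gadd45a changed on the log2 scale by −1.41 with KBrO3 alone and by −1.27 with co-exposure. Gadd45b changed by −1.10 and −1.45 in the same comparisons and by −1.64 with BPA alone, and its BPA-added difference changed by −0.35, or by 0.01 by its dimmer probe. Gadd45g changed by −2.01 and −2.76, and by −1.45 with BPA alone, and its BPA-added difference changed by −0.75. Gadd45gip1 moved the other way, rising by 0.36 with KBrO3 alone and 0.66 with co-exposure, with a change of 0.30 in the BPA-added difference. That last value was −0.11 by the dimmer probe (adjusted p = 0.457 in limma) and was not called with quantile normalization, the mean of both probes, normexp or all 24 arrays in 1 fit, nor in 4 of the fits that left out 1 array. BPA alone exceeded BPA added to KBrO3 at 4 hr by 1.71 for Gadd45b and 0.87 for Gadd45g, the latter with an adjusted p of 0.0496 in limma and called in only 5 of 14 other settings and 5 of the 24 fits that left out 1 array.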

How the results depend on the processing

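No called change of a representative probe turned its direction under the alternatives run, the mean of a gene's probes included. By the second probe alone, 3 such changes stood on the other side of 0, that of Gadd45gip1 for BPA added at 24 hr (−0.20) and those of the BPA-added difference over time for Gadd45gip1 (−0.11) and Gadd45b (0.01). Of 203 counts of called members under other settings 173 stayed within 1.5 times the count reported, and 30 did not. The methods' threshold left 0 of 4 members for KBrO3 alone at 24 hr, 1 for co-exposure at 24 hr, 1 for co-exposure against KBrO3 alone at 24 hr, 0 for the change of that difference, 0 for all 3 comparisons of BPA alone, and 1 for BPA alone against BPA added at 4 hr. Normexp background correction gave 2, 2, 0, 0 and 1 for the same comparisons from co-exposure at 24 hr on (0 for each of the 3 of BPA alone), and over all probes 18868, 3028 and 2531 calls for the first set, 0 to 16 for BPA alone and 207 for the last. The slide as a fixed block gave 0 for BPA alone at 4 hr, 24 hr and between them, and 3 for BPA alone against BPA added at 24 hr. The slide as a random block gave 1 at 4 hr and 2 at 24 hr for the last comparison. All 24 arrays in 1 fit gave 1 for KBrO3 alone at 24 hr, 1 for the change of the BPA-added difference and 3 for BPA alone at 24 hr, where the calls over all probes went from 18070 to 11528, from 14821 to 5962 and from 1082 to 6586. For BPA alone against BPA added at 4 hr, 1 member was called with median scaling, quantile normalization, probes above background on every array, outlier spots kept, and only the arrays compared. Replicate numbers do not pair the samples, and a fit with the replicate block also called 1 member there and left the counts of all other comparisons as they were. The cause of these changes was not tested. The share of all probes that met the methods' threshold in the comparisons with BPA alone is not given here. Member counts without a share or count of all probes beside them are not read as results about the members. Leaving out 1 array gave 1 to 2 members for co-exposure against KBrO3 alone at 4 hr (2 without co-exposure 4 hr replicate 1), for BPA alone between the times (1 without BPA 4 hr replicate 2 or 3) and for BPA alone against BPA added at 4 hr. Median scaling moved the median of all probes by up to 0.46 (co-exposure at 24 hr against 4 hr, from −0.22 to 0.24), quantile normalization by up to 0.24 and normexp by up to −0.53. The within-slide differences were chosen after seeing the data. A fixed slide block gave no value for first-set comparisons of control or KBrO3 at 4 hr with the other groups, which share no slide with them. In the second set the wider spread between 3 arrays a group limits which changes could be called.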
